A study of Mus musculus with 6 samples.

Results

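Complement transcripts were followed in the ageing mouse kidney through 8 genes of the classical and alternative pathways: C1qa, C1qb, C1qc, C1ra, C4b, C2, C3 and Cfb. They were chosen by name, as every non-control probe whose target is a RefSeq transcript of one of these genes (NM_007572, NM_009777, NM_007574, NM_023143, NM_009780, NM_013484, NM_009778 and NM_008198, in that order). This gave 10 of the 55681 probes on the array and 8 of the 20284 genes that the probes name. All 10 probes were well above background on all 6 arrays, so every one of the 8 genes was among the 14545 genes tested and none entered through a filter on low signal. Whole-kidney total RNA came from male mice of the inbred strain C57BL/6, 3 samples at 2 months of age (young) and 3 at 20 months (aged). No treatment or engineered allele is named for either age, and every sample had a single-colour Agilent array of its own. Values below are listed in the order of replicates 1, 2 and 3.

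The labels speak of independent RNA preparations without naming the mice, so it is unknown whether the preparations of an age share an animal. P-values reflect only how these samples vary, and some of that variation may be technical. All 6 arrays lay on 1 slide, the young ones in one row and the aged ones in the other, so that an effect of the row and an effect of age cannot be told apart. The array numbered 3 was the dimmest of each age: the 75th percentile of the processed signal lay between 4061 and 4498 on the other 4 arrays and at 2892 and 2702 on these. The 12 markers of nephron segments checked (among them Slc22a6 of the proximal tubule and Umod of the thick ascending limb) were well above background on all 6 arrays. The test of age was passed by 0 of the 12 and by 3.38% of all genes tested. With 3 arrays an age, their number sets the precision.

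Complement is a cascade of plasma and tissue proteins. In the classical pathway, C1q, a bundle of chains encoded by C1qa, C1qb and C1qc, binds antibody complexes or damaged surfaces and turns on the proteases C1r and C1s, which cleave C4 and C2 to form a C3 convertase. In the alternative pathway, C3 fragments on a surface bind factor B, encoded by Cfb, whose cleavage gives a second kind of C3 convertase that amplifies the deposit. Liver makes most plasma complement, macrophages are the main source of C1q in tissue, and kidney tubule cells are known to transcribe C3, C4 and factor B locally.

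In RefSeq the C1q genes are immediate neighbours on chromosome 4, with 0 coding genes between C1qb and C1qc and 0 between C1qc and C1qa. Cfb and C2 are neighbours on chromosome 17. The upstream sequences of the C1q genes are shown because these genes lie together and gave similar differences between the ages. Windows of 250 bases before and 50 after the transcription start, taken from RefSeq on GRCm38.p6, were at hand for 4 of the 8 genes (C1qb, C1qc, C1ra and C3). They were searched on both strands for 6 motifs, and the 250 bases before the start are printed 5′ to 3′ in the gene's direction for C1qb (chr4:136886201-136886450, minus strand) and C1qc (chr4:136892915-136893164, minus strand), with matches in capitals.
C1qb: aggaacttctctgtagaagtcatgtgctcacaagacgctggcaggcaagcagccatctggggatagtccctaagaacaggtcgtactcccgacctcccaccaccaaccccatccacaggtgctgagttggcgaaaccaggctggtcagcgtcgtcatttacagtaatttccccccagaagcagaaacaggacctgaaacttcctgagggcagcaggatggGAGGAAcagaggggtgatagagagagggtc
C1qc: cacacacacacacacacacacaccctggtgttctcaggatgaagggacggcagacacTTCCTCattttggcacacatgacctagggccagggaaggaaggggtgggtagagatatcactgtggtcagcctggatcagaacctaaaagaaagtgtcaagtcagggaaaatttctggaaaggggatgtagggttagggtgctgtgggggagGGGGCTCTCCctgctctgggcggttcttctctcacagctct

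The capitals in C1qb are GAGGAA, the core bound by PU.1, a transcription factor of myeloid cells, at bases -30 to -25. In C1qc the first capitals are the same core read on the other strand, TTCCTC at -193 to -188, and the second are a match to the NF-kB consensus, GGGGCTCTCC at -41 to -32. The C1ra window held a gamma-activated site of the form TTCNNNGAA (TTCCCTGAA, bases 33 to 41 after the start) and a PU.1 core on the other strand at bases 45 to 50. None of the searched letters occurred in the C3 window. These motifs are common: GAGGAA was present in 28.3% of 32851 windows of the same length, TTCNNNGAA in 8.3% and the NF-kB consensus in 8.46%. The other motifs searched, with no match in these 4 windows, were CACGTG (an E-box, 7.15% of windows), the interferon response element made of GAAA, any 2 bases and GAAA (3.44%) and TTGCGCAA (a C/EBP palindrome, 0.183%). No matches of different motifs overlapped in these windows. A match is a description of letters and not evidence of a bound site.

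C4b showed the largest difference between the ages among the 8 genes, and C1qc was the other gene that passed the test. At 20 months C4b signal was 3.28-fold that at 2 months and C1qc signal 1.60-fold. C1qa, C1qb and C3 were about as much higher as C1qc, with groups that did not overlap, but did not pass after adjustment over all genes. C2 and C1ra differed less, and Cfb was the only one of the 8 whose estimate lay below 0. In all, 2 of 8 genes were called higher and 0 lower (limma, Benjamini-Hochberg adjusted p under 0.05), where 1.98% of all genes tested were called higher and 1.4% lower. Groups did not overlap, with aged higher, for 5 of 8, where this held for 10.4% of all genes. The median log2 change was 0.58 over the 8 genes, 7 of which lay above 0, and -0.01 over all genes tested, of which 47.2% lay above 0. The 8 genes and the lists below were chosen with earlier results of these data known. Setting their counts beside the shares over all genes is therefore a description and not a test.

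**Figure D1:**
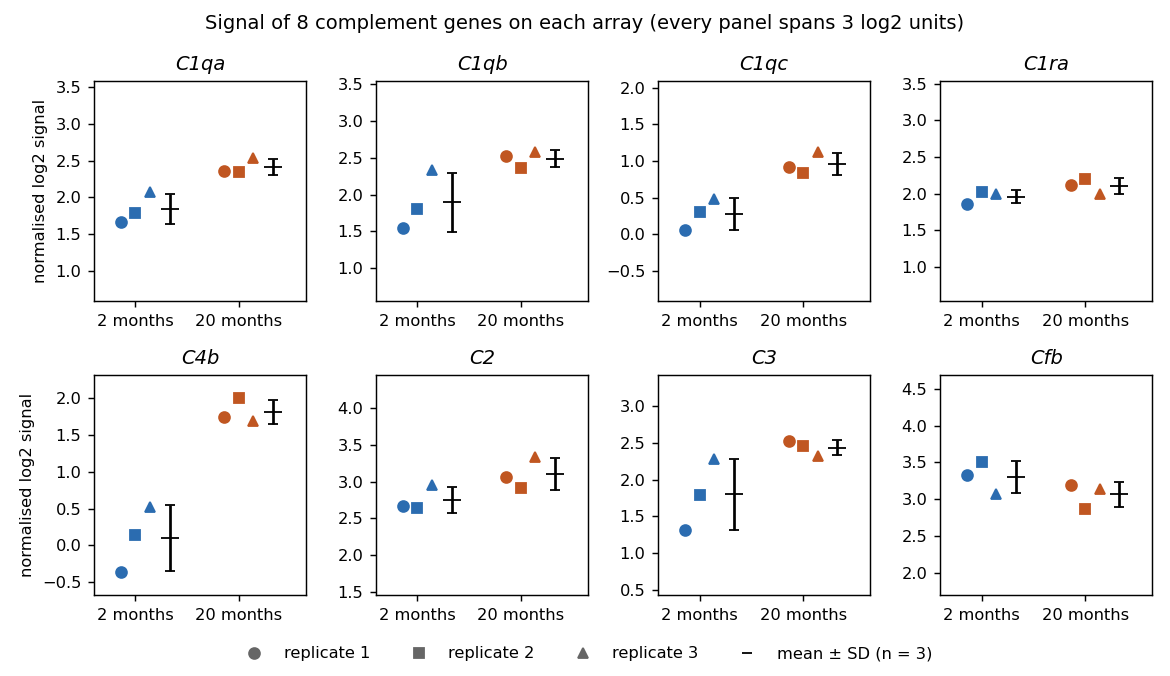
Normalised log2 signal (log2 processed signal minus the 75th percentile of its array) of each of the 8 genes, one panel a gene, for 3 arrays at 2 months and 3 at 20 months; marker shapes give the replicate number, bars give mean ± SD (n = 3), and every panel spans 3 log2 units. The aged points lie wholly above the young ones for C1qa, C1qb, C1qc, C4b and C3 and overlap them for C1ra, C2 and Cfb.

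The recognition subunit was measured through 1 probe for each chain. Signals are given here as multiples of the 75th percentile of the same array. C1qa, which encodes the A chain, stood at 3.16, 3.45 and 4.19 at 2 months and at 5.12, 5.09 and 5.80 at 20 months. The lowest aged array was above the highest young one, and the log2 change was 0.57 ± 0.13 (SE; 95% interval 0.26 to 0.89), with an adjusted p = 0.0678 that missed the threshold. C1qb, which encodes the B chain, stood at 2.90, 3.51 and 5.03 at 2 months and 5.76, 5.12 and 5.96 at 20 months. Here young replicate 3 reached within a narrow margin of the lowest aged array, and the log2 change was 0.59 ± 0.20 (SE; 95% interval 0.14 to 1.05; adjusted p = 0.176).

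C1qc, which encodes the C chain, stood at 1.04, 1.23 and 1.39 at 2 months and 1.89, 1.79 and 2.17 at 20 months. All aged arrays exceeded all young ones, and the log2 change was 0.68 ± 0.14 (SE; 95% interval 0.35 to 1.01; adjusted p = 0.0462). Its probe is printed in 10 spots on each array, whose log2 signals had an SD of 0.03 to 0.12 within an array, against an SD of 0.21 between young and 0.15 between aged arrays. This call sat at the edge: it was made in 8 of 19 other settings and in 0 of the 6 fits that left out 1 array, with adjusted p between 0.0549 and 0.162 in those 6 and between 0.00981 and 0.196 over all 19. The estimate stayed between 0.57 and 0.78 throughout.

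The ratios between the chains differed little between the ages. The ratio of one chain to another on the same array changed by -0.02 (C1qa to C1qb), -0.11 (C1qa to C1qc) and -0.09 (C1qb to C1qc) log2 units from young to aged. The groups overlapped in each of these 3 ratios (two-sided exact permutation p = 0.9, 0.2 and 0.7). On each of the 3 chains young replicate 1 was the lowest of the young arrays and young replicate 3 the highest.

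C1ra encodes C1r, the protease that C1q activates first. Its brighter probe stood at 3.63, 4.06 and 3.99 at 2 months and 4.35, 4.60 and 3.98 at 20 months, so that aged replicate 3 lay among the young values. The log2 change was 0.15 ± 0.11 (SE; 95% interval -0.11 to 0.40; adjusted p = 0.551). The dimmer of its probes gave 0.28 ± 0.17 with overlapping groups (adjusted p = 0.464 in the fit over all probes). The log2 change of C1qc exceeded that of C1ra by 0.53, with no overlap between the ages in the ratio of the pair on each array (two-sided exact permutation p = 0.1). C1rb, a close copy of C1ra separated from it in RefSeq by C1s1 alone, gave 0.06 ± 0.20 (adjusted p = 0.916). Near-identical copies can share signal on a probe, so neither C1r gene is certain to be measured alone.

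C4b encodes complement C4, which C1s cleaves and whose larger fragment attaches to the target surface. Its signal was 0.778, 1.103 and 1.44 at 2 months and 3.35, 4.02 and 3.24 at 20 months. The lowest aged array was more than 2-fold the highest young array. The log2 change was 1.71 ± 0.22 (SE; 95% interval 1.21 to 2.22), a fold of 3.28 with an interval of 2.31 to 4.66 (adjusted p = 0.0100), which ranked 85th by p among the 14545 genes. C4b was called in 17 of 19 other settings, with changes between 1.48 and 1.99 and adjusted p between 1.09e-05 and 0.109. It was not called without aged replicate 2 (change 1.62, adjusted p = 0.0521) or with no filter on dim probes (adjusted p = 0.109). In the fit over all probes it was the 1 probe of the 10 that was called (adjusted p = 0.0142), where 1.48% of 30821 probes were called higher. C4a, a near-identical gene that RefSeq places on the other side of Cyp21a1, has no named probe here, so whether the C4b probe also reads C4a transcripts was not tested.

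C2 encodes the protease that joins C4 in the classical C3 convertase. It stood at 6.34, 6.21 and 7.72 at 2 months and 8.33, 7.50 and 10.1 at 20 months. The groups overlapped because young replicate 3 exceeded aged replicate 2. The log2 change of 0.35 ± 0.15 (SE; 95% interval 0.01 to 0.69) did not pass (adjusted p = 0.283). The change of C4b exceeded that of C2 by 1.36 log2 units, with no overlap between the ages in their ratio (two-sided exact permutation p = 0.1, the smallest this design allows).

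C3 is the protein on which both pathways converge, and its cleavage products opsonise targets and recruit leukocytes. The brighter of its probes stood at 2.49, 3.47 and 4.87 at 2 months and 5.76, 5.48 and 4.99 at 20 months. The groups were separate but close, since young replicate 3 almost reached aged replicate 3, and the log2 change was 0.64 ± 0.23 (SE; 95% interval 0.11 to 1.16; adjusted p = 0.203). The other C3 probe, printed in 10 spots, gave 0.72 ± 0.20, again with no overlap (adjusted p = 0.159 in the fit over all probes). The probes of C3 therefore gave similar changes, and neither passed. The estimate depended on single young arrays: it was 0.39 without young replicate 1 and 0.88 without young replicate 3, with adjusted p of 0.456 and 0.0653. C1qb behaved likewise, at 0.42 without young replicate 1 and 0.81 without young replicate 3.

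Cfb encodes factor B, the alternative-pathway counterpart of C2. It stood at 10.04, 11.3 and 8.39 at 2 months and 9.15, 7.30 and 8.79 at 20 months. The groups overlapped, and the log2 change was -0.23 ± 0.15 (SE; 95% interval -0.58 to 0.11; adjusted p = 0.479). That interval excludes a rise of the size estimated for any C1q chain, for C3 or for C4b, but those estimates have intervals of their own. The ratio of C3 to Cfb overlapped between the ages (difference 0.87, two-sided exact permutation p = 0.2). Those of C1qa, C1qb, C1qc and C4b to Cfb did not (two-sided exact permutation p = 0.1 each). Cfb and C2 are adjacent genes, and the change of C2 exceeded that of Cfb by 0.58 log2 units, but the groups overlapped in their ratio (exact permutation p = 0.2).

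**Figure D2:**
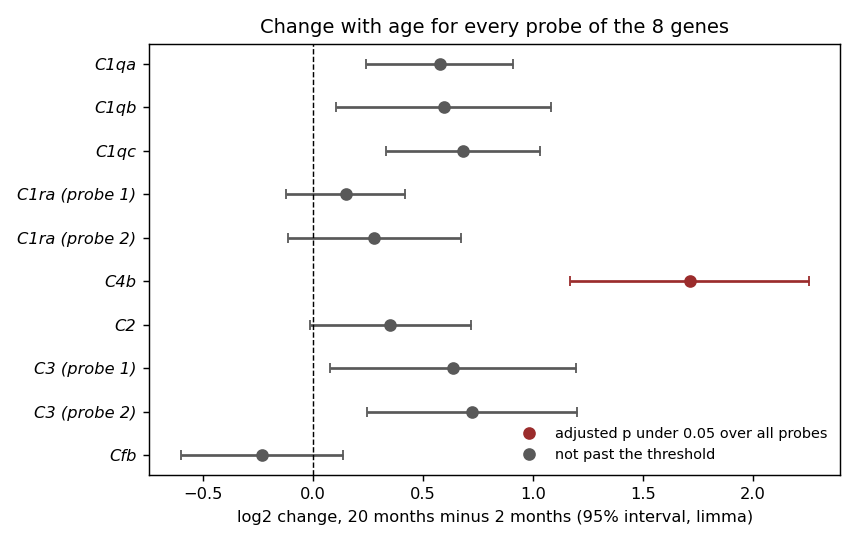
Log2 change (20 months minus 2 months) of each of the 10 probes of the 8 genes, with 95% intervals from the limma fit over all 30821 probes tested. C4b, at 1.71, is the probe past an adjusted p of 0.05; C1qa, C1qb, C1qc and both C3 probes have intervals above 0 without passing, and the Cfb interval spans 0.

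Across the 28 pairs of these genes, the within-array ratio separated the ages for 14. The pairs share genes, so these are not 14 separate findings. They were every pair with C4b and some pairs of a C1q chain with C1ra, C2 or Cfb. No share for pairs of other genes is given here to compare with this count. With 3 arrays a group the smallest two-sided exact permutation p is 0.1, and after adjustment over the 28 pairs the smallest value was 0.2, so that no pair could pass. The C4b change exceeded that of each of the other 7 genes with no overlap, by 1.03 (over C1qc) to 1.95 (over Cfb) log2 units. The 6 changes ordered below C4b ran from C1qc (0.68) through C3 (0.64), C1qb (0.59), C1qa (0.57) and C2 (0.35) to C1ra (0.15). The ratios of the neighbours C1qc and C3, C3 and C1qb, and C1qb and C1qa overlapped between the ages. That of C1qa to C2 did not (difference 0.22, two-sided exact permutation p = 0.1), but the margin was narrow. Its highest young value was -0.85 and its lowest aged value -0.80 log2 units. The ratios of C1qb to C2 (difference 0.24), C2 to C3 (-0.29) and C1ra to C2 (-0.20) overlapped (two-sided exact permutation p = 0.2, 0.4 and 0.5). Over the 6 arrays, which share the age difference, Pearson's r was 0.991 between C1qa and C1qc, 0.899 between C4b and C3 and 0.266 between C1ra and C2. Cfb had a negative r with each of the other 7, from -0.71 to -0.51.

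The genes whose signal followed C4b most closely over the 6 arrays, among 13997 named genes with a value on each, were C1qtnf5 (r = 0.996), Sp140 (0.996), Qpct (0.996), Tent5a (0.992) and Anxa13 (0.991). All 5 were called higher in aged kidney, with log2 changes of 0.59 to 0.93, all smaller than that of C4b. Since C4b separated the ages on these arrays, genes chosen for following it were close to bound to differ likewise. Their calls are therefore no support for a shared change. With the mean of each age removed, r with C4b was 0.905 (Anxa13) to 0.977 (Sp140). Leaving out 1 array, C1qtnf5, Sp140 and Qpct were called in 1 of 6 fits each (that without aged replicate 1), Tent5a in 2 (lost without young replicates 1 or 2 or aged replicates 2 or 3) and Anxa13 in 5 (lost without aged replicate 2). C1qtnf5 encodes a secreted protein with a C1q-like domain and Sp140 a nuclear-body protein of leukocytes. The genes closest to the mean of the C1q chains were Aif1 (r = 0.999), H2-Q8 (0.994), Itga4 (0.992), Cybb (0.990) and Sspn (0.988). Aif1, which is also in the macrophage list below, encodes a calcium-binding protein and Cybb the catalytic subunit of the phagocyte oxidase. Cybb was called higher (log2 change 0.68 ± 0.13, adjusted p = 0.0400; lost without young replicates 1 or 2 or aged replicates 2 or 3, at adjusted p of 0.103 to 0.151), and the other 4 were not. With the mean of each age removed, r with the C1q mean was 0.958 (Sspn) to 0.998 (Aif1). These correlations are chosen as the highest of many and carry no test, and the same choice lies behind the age differences of both sets of genes.

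The rest of the cascade was read from 5 lists of other complement genes. Of 50 genes, 48 had a named probe and 37 were tested. Of these 37, 4 were called higher, 2 lower and 31 did not pass, with a median log2 change of 0.25. Groups did not overlap for 11 with aged higher and 2 with aged lower. Among all 14545 genes tested, 1.98% were called higher and 1.4% lower. Groups did not overlap for 1511 of these 14545 genes with aged higher (10.4%) and for 1675 with aged lower. The counts of the single complement lists below are to be read beside the same shares. The median was 0.57 over 11 genes of classical and lectin initiation, 0.52 over the alternative-pathway genes Cfd and Cfp, -0.03 over 4 terminal genes (0.28 over the 3 that were well above background on all 6 arrays), 0.21 over 8 receptors and 0.06 over 12 regulators.

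Among initiation genes, 1 of 11 was called. Mbl1, a mannose-binding lectin that starts the lectin pathway, stood at normalised log2 signals of 0.54, 0.50 and 0.42 at 2 months and 1.01, 1.04 and 1.11 at 20 months. The groups were far apart relative to their spread, and the change was 0.57 ± 0.10 (adjusted p = 0.0272). The call was kept in 1 of the 6 fits that left out an array, being lost without any one of the arrays other than aged replicate 1 (adjusted p 0.0700 to 0.104). C1s1 and C1s2, which encode C1s proteases, the partners of C1r, gave 0.33 ± 0.12 (adjusted p = 0.211) and 0.25 ± 0.13 (adjusted p = 0.384) and did not pass. Fcna, the plasma ficolin, named here after its values were seen, had the largest estimate of the list, 2.68 ± 0.95, without passing (adjusted p = 0.202). Its young values were -6.15, -2.43 and -2.04 and its aged values -0.67, -0.89 and -1.01, so that young replicate 1 stood far below all other arrays. Fcnb, Colec10 and Crp stayed at background on all 6 arrays.

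In the alternative pathway Cfd, which encodes factor D, the protease that cleaves factor B, gave 0.58 ± 0.39 (adjusted p = 0.498). Its values were 1.51, 2.83 and 3.23 at 2 months and 3.09, 3.04 and 3.18 at 20 months. Apart from young replicate 1, the young and aged values were intermingled. Cfp, which encodes properdin, the stabiliser of the alternative convertase, gave 0.46 ± 0.18 with no overlap and did not pass (adjusted p = 0.232).

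Among the terminal genes, C6, a component of the membrane attack complex, stood at -4.82, -4.11 and -3.77 at 2 months and -2.45, -2.70 and -2.17 at 20 months, a rise of 1.79 ± 0.26 (adjusted p = 0.0148). Hc, which encodes C5, the first terminal component, stood at -4.13, -3.35 and -4.21 at 2 months and -4.96, -5.50 and -5.49 at 20 months, a change of -1.42 ± 0.25 (adjusted p = 0.0283). Hc was well above background on 3 young arrays but on 1 of 3 aged arrays, so it passed the filter through the young arrays alone, and its call is not counted as support for a fall. C6 was not called without aged replicate 2 or aged replicate 3 (adjusted p = 0.0524 and 0.0577), nor Hc without young replicate 1, aged replicate 2 or aged replicate 3 (adjusted p 0.0607 to 0.118). C8g (0.28 ± 0.15, adjusted p = 0.406) and C8a (-0.35 ± 0.14, adjusted p = 0.270) did not pass, and C8b and C9 stayed at background on all 6 arrays.

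Of 8 receptors tested, 1 was called. Itgax, the alpha chain of complement receptor 4 and a marker of dendritic cells and some macrophages, rose by 0.99 ± 0.13 (adjusted p = 0.0111). Its values were -1.98, -1.68 and -1.58 at 2 months and -0.68, -0.80 and -0.80 at 20 months. It was called in each of the 6 fits that left out 1 array. Itgam, the alpha chain of complement receptor 3, gave 0.16 ± 0.13 (adjusted p = 0.563), and Cr1l, a membrane regulator of C3 convertases, -0.08 ± 0.12 (adjusted p = 0.793). The Itgam probe had a mean normalised log2 signal of 5.03, above the 4.54 of the proximal tubule gene Slc22a6. Whether this probe reads Itgam alone was not tested.

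Of 12 regulators tested, 1 was called higher and 1 lower. Csmd1, a membrane protein whose repeats resemble those of complement regulators, rose by 1.20 ± 0.16 (adjusted p = 0.0123), from -3.70, -3.20 and -3.73 at 2 months to -2.19, -2.41 and -2.42 at 20 months. Cpb2, a carboxypeptidase that trims anaphylatoxins and fibrin, fell by 0.92 ± 0.14 on the log2 scale (adjusted p = 0.0185). Clu, which encodes clusterin, gave 0.01 ± 0.13 (adjusted p = 0.979) and Cd59a, a membrane inhibitor of the terminal complex, -0.13 ± 0.13 (adjusted p = 0.670). Csmd1 was not called without aged replicate 2 (adjusted p = 0.0531), nor Cpb2 without young replicates 1 or 3 or aged replicates 2 or 3 (adjusted p 0.0545 to 0.0830).

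**Figure D3:**
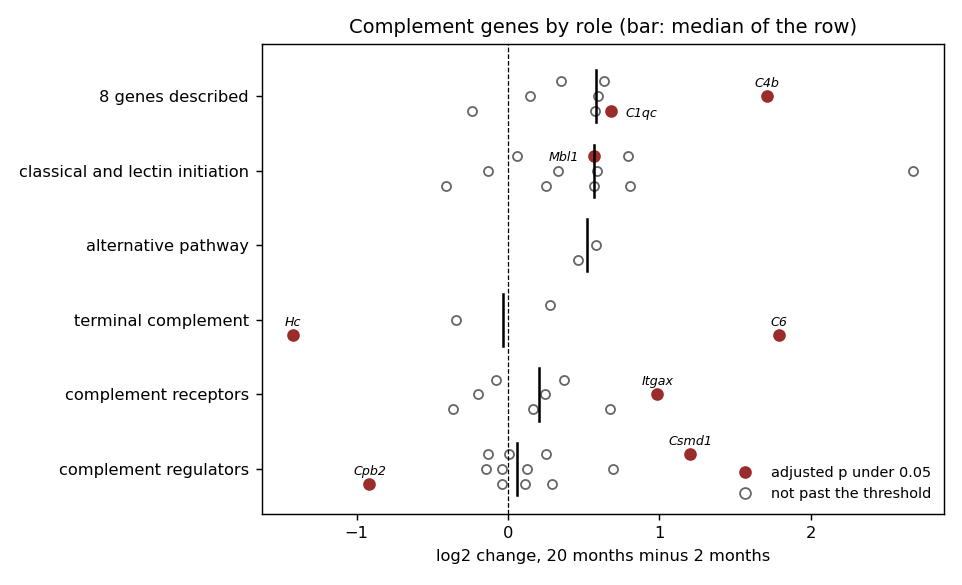
Log2 change (20 months minus 2 months) of each tested gene, in rows for the 8 genes described and the 5 lists of other complement genes; filled points passed an adjusted p of 0.05 over all genes and are named, open points did not, and the bar in each row is its median. Called genes lie on both sides of 0, with C6 (1.79), C4b (1.71), Csmd1 (1.20), Itgax (0.99), C1qc (0.68) and Mbl1 (0.57) above and Cpb2 (-0.92) and Hc (-1.42, above background on 1 aged array) below.

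Complement genes are classic targets of interferon gamma, interleukin-6 and NF-kB signalling, and several are acute-phase genes. Of 24 inducers and acute-phase genes, 19 were tested and 1 was called: Cp, which encodes ceruloplasmin, rose by 0.97 ± 0.17 (adjusted p = 0.0269). This call was lost without young replicates 1 or 3 or aged replicates 2 or 3 (adjusted p 0.0581 to 0.0823). The median change of the list was 0.18, and 16 of the 19 estimates lay above 0. Groups did not overlap for 6 with aged higher and for 0 with aged lower. Over all genes tested, 47.2% lay above 0, 10.4% did not overlap with aged higher and 1.98% were called higher. The NF-kB subunit gene Rela (0.18 ± 0.11) and the NF-kB inhibitor gene Nfkbia (0.05 ± 0.12) did not pass, and Il6 and Tnf stayed at background on all 6 arrays.

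Macrophage markers lay higher at 20 months on the same arrays as the C1q chains. In whole tissue, fewer or more cells of a type and less or more RNA per cell cannot be told apart. Of 20 macrophage markers, 19 had a named probe and 18 were tested. All 18 tested had estimates above 0, and 11 had groups that did not overlap, with aged higher. Over all genes tested, 47.2% lay above 0, 10.4% did not overlap with aged higher and 1.98% were called higher. Only 2 of the 18 were called: Trem2, a lipid-sensing receptor (1.57 ± 0.26, adjusted p = 0.0241), and Ctss, which encodes cathepsin S (0.64 ± 0.13, adjusted p = 0.0451). Trem2 was lost without young replicates 1 or 2 or aged replicates 2 or 3 (adjusted p 0.0625 to 0.104), and Ctss without any array other than aged replicate 1 (0.0695 to 0.174). The most strongly detected of the others, Cd74 (0.49 ± 0.15, adjusted p = 0.151) and Csf1r (0.07 ± 0.13, adjusted p = 0.834), did not pass. The list's summed signal, in multiples of each array's 75th percentile, ranged from 36.3 to 45.6 at 2 months and from 51.4 to 61.4 at 20 months.

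The median macrophage marker stood at normalised log2 signals of 0.46, 0.78 and 0.68 at 2 months and 1.00, 0.92 and 1.08 at 20 months. The mean of the C1q chains stood at 1.09, 1.30 and 1.63 and at 1.93, 1.85 and 2.08. Taken relative to the macrophage median on the same array, the C1q mean was 0.63, 0.52 and 0.95 at 2 months and 0.93, 0.92 and 1.00 at 20 months, which overlap. The same difference for C4b was -0.82, -0.64 and -0.15 at 2 months and 0.74, 1.08 and 0.61 at 20 months, which do not overlap. For C3 it was 0.86, 1.01 and 1.61 at 2 months and 1.53, 1.53 and 1.24 at 20 months, which overlap. The part of macrophage content in the C1q and C3 values was not tested.

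Adipocyte markers were lowest on young replicate 1, as were C3 and the C1q chains. Their median was -1.71, -0.08 and 0.59 at 2 months and 1.13, 0.88 and 1.08 at 20 months. Of 7 markers 6 were tested, all 6 had estimates above 0 with a median of 1.50, and 1 was called: Plin4, a lipid-droplet coat protein (1.78 ± 0.32, adjusted p = 0.0294). Over all genes tested, 47.2% lay above 0 and 1.98% were called higher. Plin4 was lost without young replicates 1 or 2 or aged replicates 2 or 3 (adjusted p 0.0787 to 0.115). Adipoq, which encodes adiponectin, had the values -0.59, 0.98 and 1.97 at 2 months and 2.68, 2.32 and 2.51 at 20 months and did not pass (adjusted p = 0.160). Fabp4 gave 0.07 ± 0.12 (adjusted p = 0.800), and Lep rose above background on 0 young arrays and 1 aged array. Factor D and C3 are products of adipocytes as well as of other cells, and the part of fat tissue in the C3, Cfd and C4b values was not tested.

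**Figure D4:**
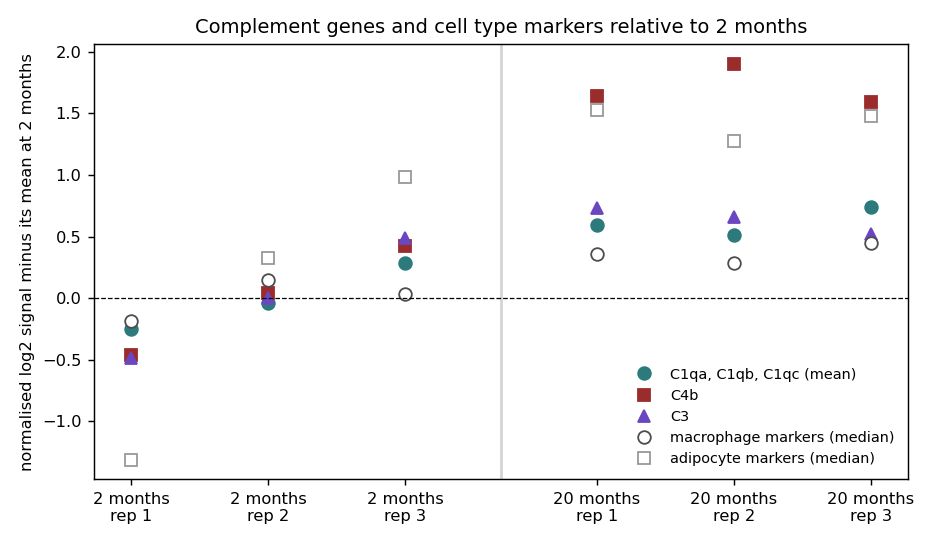
Normalised log2 signal on each of the 6 arrays, minus the mean of the same quantity over the 3 arrays at 2 months, for the mean of C1qa, C1qb and C1qc, for C4b, for C3, and for the medians of the macrophage and adipocyte markers. On the aged arrays C4b lies 1.59 to 1.90 above its young mean and the C1q mean 0.51 to 0.74 above; among the young arrays replicate 1 is lowest for all 5 quantities, and the adipocyte median spans -1.31 to 0.99.

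Markers of other cells the tissue could hold gave the following counts, to be read beside 1.98% called higher and 1.4% lower over all genes tested. Of 7 tested B cell and plasma cell markers 4 were called higher (Jchain, Pou2af1, Mzb1 and Ms4a1), with a list median of 1.35. Ms4a1 was lost without any array other than aged replicate 1 (adjusted p 0.0768 to 0.124). Xbp1 (0.18 ± 0.16, adjusted p = 0.602) and Cd79b (0.87 ± 0.20, adjusted p = 0.0692), the brightest others, did not pass. Of 9 T cell markers 5 were called higher, among them Cd2, Cd5, Lck and Cd3d, with a median of 0.72. This count fell to 1 without young replicate 1, young replicate 2 or aged replicate 2 and to 3 without any of the other arrays. Cd3d was called in 0 of these 6 fits. The brightest T cell markers that did not pass were Cd4 (-0.24 ± 0.31, adjusted p = 0.754) and Cd3g (0.84 ± 0.24, adjusted p = 0.116). Of 9 fibroblast markers 0 were called higher and 2 lower (Col1a1 and Col3a1), with a median of -0.23. Both were lost without aged replicate 2 (adjusted p = 0.0521 and 0.0824). Col1a1 was also lost without young replicates 1 or 3 (0.0625 and 0.0515) and Col3a1 without aged replicate 3 (0.0641). Col1a2 (-0.45 ± 0.16, adjusted p = 0.197) and Dcn (0.03 ± 0.14, adjusted p = 0.944), the brightest others, did not pass. Of 9 tested hepatocyte markers 1 was called (Apoh, 1.52 ± 0.17), and the median was 0.05. Ttr (-0.32 ± 0.10, adjusted p = 0.159) and Serpina1a (0.05 ± 0.14, adjusted p = 0.745) were the brightest others and did not pass. Of the 11 listed, 8 were well above background on all 6 arrays, and 1, the liver enzyme gene Cps1, stayed at background on all 6. Of 10 tubular injury markers 1 was called (Timp1, 1.26 ± 0.20), with a median of 0.29. Timp1 was lost without young replicates 1 or 3 or aged replicate 2 (adjusted p 0.0533 to 0.0974). Spp1 (-0.05 ± 0.12, adjusted p = 0.871) and Vim (0.15 ± 0.11, adjusted p = 0.549), the brightest others, did not pass. The called lymphocyte markers differed on the same arrays as C4b, and their part in its rise was not tested.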

How the data were processed

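Total RNA from 3 young and 3 aged kidney samples was labelled with Cy3 from random primers, per the labels' protocols. Whether a probe also read antisense transcripts was not tested. Agilent Feature Extraction 11.5.1.1, per the submitters' processing notes, gave the processed signal intensity. Per the file headers it was background-subtracted within each array on a linear scale. The value table deposited by the authors is on the log2 scale and matches these signals minus a percentile of each array. It served as an alternative.

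Outlier and control spots were left out, spots of a probe were averaged as log2, and each array's 75th percentile was subtracted. A probe was tested if either age had it well above background on all 3 arrays, and a gene was its brightest probe. Of 55681 probes, 26762 were named through RefSeq (GRCm38.p6); the array's grid is on mm9, so no gene coordinates are given. Ages were compared with limma 3.58.1 (R 4.3.3, lmFit and eBayes, 2-sided), Benjamini-Hochberg adjusted over all genes or all probes, threshold 0.05. Ratios of 2 genes used exact permutation. The fit was tested on simulated data.

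The 8 genes and all lists were chosen with earlier results of these data known. From each list up to 4 called genes and the 2 brightest others were named. Of the genes first listed, 2 are not reported here and were left out of the lists' counts and medians. Likeness is Pearson's r, 5 genes each. The alternatives were other scalings, background corrections, filters and probe rules, the deposited log2 values, eBayes options, array weights, a replicate block and leaving out arrays.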

Additional observations from a re-analysis of the deposited data

How the results depend on the processing

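Each of the 8 genes kept its direction in all 19 alternatives. Besides C4b and C1qc, C1qa was called in 3 (adjusted p 0.0137 to 0.236 over the 19), and C1qb, C1ra, C2, C3 and Cfb in 0. The count of genes called among the 8, 2 as reported, was 1 under quantile normalisation, 1 with the mean over a gene's probes, 0 with no filter on dim probes and 0 to 1 when leaving out 1 array. The count of probes called among the 10, 1 as reported, was 0 with no filter, 2 with signal required on all 6 arrays, 3 with trend and robust eBayes and 0 to 1 when leaving out 1 array (0 without young replicate 2 or aged replicate 2). Over all genes, 491 were called (288 higher, 203 lower). This became 773 under median centring (397 of them higher), 303 under normexp (213 of them higher), 782 when arrays were weighted (428 of them higher), 16 with no filter (15 of them higher), and 141 (without aged replicate 2) to 925 (without aged replicate 1, with 346 higher and 579 lower) when leaving out 1 array. Leaving out the dimmest array of each age, chosen after seeing the data, gave 66 calls over all genes, 1 among the 8 (C4b) and 0 among the 10 probes. With the replicate block, 266 genes were called over all genes and 1 among the 8, with C1qc lost (adjusted p = 0.0609). In normalised signal, same-numbered arrays did not deviate together (r = 0.06, -0.09 and 0.10 over 14504 genes), so the numbers were not taken as pairs. Before scaling, the 75th percentile fell from replicate 1 to 3 at both ages (4366, 4061 and 2892 young, 4498, 4205 and 2702 aged). A technical level shared by number is therefore not excluded. Some other listed genes with estimates near 0 also changed sign in a setting, and Derl3 (-0.33 as reported, not called) ranged from -0.51 to 0.023 when leaving out 1 array, the latter without young replicate 2. The cause was not tested. Signal over background did not limit the 8 genes but did limit Hc.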
